A study of Mus musculus with 15 samples.

Results

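Clustered histone genes encode the histones that package newly made DNA. Their members here were the genes of the deposited gene count table whose GENCODE M21 symbol begins with Hist1h, Hist2h, Hist3h or Hist4h, with annotated pseudogenes left out. This rule gave 67 genes of 55536 genes matched to the annotation: 6 for the linker histone H1, 18 for H2A, 18 for H2B, 12 for H3 and 13 for H4. On GRCm38, 54 members lay in the Hist1 cluster at chr13:21715763-23934851, 10 in the Hist2 cluster at chr3:96219865-96270132, 2 in the Hist3 cluster at chr11:58948920-58956830 and 1, Hist4h4, at chr6:136801553-136804415.

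The libraries held poly(A) RNA of CD8+ T cells from OT-I T cell receptor transgenic mice on the C57BL/6J background, whose receptor recognizes the ovalbumin peptide SIINFEKL. The study's methods describe donors that lacked Rag1 or Rag2. Naive cells came directly from OT-I mice without transfer, while Ag cells were transferred into wild-type C57BL/6J mice given peptide with a control rat IgG, and Ag+Costim recipients were given peptide with agonist antibodies to OX40 (CD134) and 4-1BB (CD137). Transferred cells were taken from spleen and lymph nodes, after 4 days per the labels, and sorted as CD8+ cells. Each group had 5 libraries. The ages of single animals were not given in the labels, and nothing there says whether each library came from a separate animal. The study's figure legends call each RNA-seq column a biological replicate, with 5 per group, without matching columns to these libraries. The p-values therefore measure only the spread between these libraries.

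Histone genes of the clusters are transcribed mainly while DNA is copied, from promoters that the coactivator NPAT serves. Most of their mRNAs end at a short stem-loop bound by SLBP and carry no poly(A) tail. Replacement histones such as H2A.Z and H3.3 are instead encoded by genes outside the clusters, with polyadenylated mRNAs made at any time in the cycle. A T cell at rest does not divide, and a T cell primed with antigen enters the cycle. The libraries were primed on poly(A), so the values of clustered histone genes are levels in poly(A) RNA and may leave out most of their stem-loop mRNA.

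The stem-loop is shown here because mRNAs that end at it carry no poly(A) tail and may be missed in these libraries. It was searched as a 16-base pattern, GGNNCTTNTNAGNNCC, in every annotated transcript of the members. The pattern was found in 46 of 67 members, against 118 of 21884 other protein-coding genes (0.539%). It was spelled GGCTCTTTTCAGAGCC in 26 members of types H1, H2A, H2B and H3, and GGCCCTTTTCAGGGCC in 7 H4 members. Examples follow with the stem-loop in capitals and up to 5 flanking bases in lower case, from the annotated transcripts of GENCODE M21.

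Hist1h2ap: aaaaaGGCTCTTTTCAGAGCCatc

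Hist1h2bk: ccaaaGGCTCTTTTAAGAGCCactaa

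Hist1h3d: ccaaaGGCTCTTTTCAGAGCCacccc

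Hist1h4d: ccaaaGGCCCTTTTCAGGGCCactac

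Hist4h4: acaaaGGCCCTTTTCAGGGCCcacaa

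Where the annotated transcript stops differed among members. The model of Hist1h2ap, an H2A gene, ended 3 bases past the stem-loop, that of the H4 gene Hist1h4d ran on for 770 bases and that of Hist4h4 for 2445 bases. In 23 members the model ran at least 100 bases past the stem-loop. No match was found in the models of Hist1h1a, Hist1h1b and Hist2h2be, which says only that these letters are not in those models.

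Promoters are shown because motifs are shared within a histone type and within facing pairs of genes. Promoters of 61 members were found in the RefSeq table for GRCm38.p6 as 62 windows of 250 bases before to 50 bases after the start, and motifs were read on both strands. CCAAT occurred in 85.5% of member promoters and 37.4% of all 32851 promoters, and was in each H1, H2A, H2B and H3 promoter but in 3 of 12 H4 promoters. TATAAA occurred in 56.5% of member promoters and 13.6% of all. The H1 box AAACACA was in 5 of 6 H1 promoters and in 7.18% of all, and the octamer ATTTGCAT was in 7 of 17 H2A and 7 of 17 H2B promoters and in 1.74% of all. A match is a description and not a binding site. The motifs, in capitals within 30-base windows on the strand of the named gene, read as follows.

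Hist1h1b, H1 box, chr13:21780724-21780753, minus strand: tggggactaacAAACACAatttgggattgt

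Hist1h1c, H1 box, chr13:23738684-23738713, plus strand: tgaagtgtaacAAACACAagttgggcgcag

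Hist1h2bg, octamer, chr13:23571330-23571359, plus strand: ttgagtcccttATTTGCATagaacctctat

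Hist2h2ac, octamer read on the opposite strand, chr3:96221062-96221091, minus strand: atgaacgccttATGCAAATtaggtctcaaa

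Hist1h4d, TATA box, chr13:23581524-23581553, plus strand: ccgcattggtatTATAAAagccaggaaggc

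The octamer printed for Hist1h2bg also lies in the promoter of Hist1h2ae, on the other strand. These 2 genes are 1 of 12 pairs of an H2A and an H2B member that face away from each other with 175 to 305 bases between their annotated starts (median 258.5).

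Sequenced reads ranged from 24713497 to 54037294 per library and total counts from 4865952 in Ag 3 to 25280667 in Naive 3. Counts made up 38.2% to 46.8% of sequenced reads in Naive and 51.9% to 52.7% in Ag+Costim. In Ag 1 to 5 they made up 37.4%, 52.4%, 16.9%, 44.3% and 53.6%. Lane 2 carried the 5 Ag libraries with Ag+Costim 1, 2 and 3, and lane 3 carried the 5 Naive libraries with the remaining Ag+Costim pair, so lane and group cannot be told apart between Ag and Naive. The CD8 T cell markers Cd3e, Cd3d, Cd8a, Cd8b1 and Trac summed to between 3398 and 6489 CPM (counts scaled to library size with TMM factors). Markers of other cells stood out in a few libraries. Myeloid markers (5 of 5 tested) summed to 606 CPM in Naive 5, of which the neutrophil gene S100a8 gave 433, against 11.9 to 116 in the other Naive libraries, 57.8 to 147 in Ag and 81.7 to 155 in Ag+Costim. The hemoglobin genes Hba-a1 and Hbb-bs were at 349 and 346 CPM in Ag 3 and at 1.13 to 40.6 in the other libraries. B cell markers summed to 137, 361 and 168 CPM in Ag 1, Ag 3 and Ag 4 and to 13.7 to 31.7 in the other 12 libraries. Cd4 was between 0 and 4.8 CPM in every library. The CD4 T cell markers together, Cd4 among them, summed to 7.98 to 23.2 CPM in Naive and 3.98 to 9.07 in Ag+Costim. In Ag 1 to 5 they summed to 21.1, 3.93, 12.8, 34.4 and 5.20 CPM.

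The clustered histone genes together were lowest and most uneven in naive cells and highest on average in costimulated cells. Summed over the 67 members, the CPM was 412, 975, 198, 220.5 and 1988 in Naive 1 to 5, 702, 3815, 2229, 556 and 4449 in Ag 1 to 5, and 2760, 2701, 2471, 2657 and 2702 in Ag+Costim 1 to 5. Every Ag+Costim library was above every Naive library, and the Ag libraries spread on both sides, with Ag 2 and Ag 5 above all others and Ag 1 and Ag 4 below Naive 2 and Naive 5. The means were 759 ± 755 CPM for Naive, 2350 ± 1768 for Ag and 2658 ± 111 for Ag+Costim (SD, n = 5). The ratio of means was 3.50 for Ag+Costim to Naive, 3.10 for Ag to Naive and 1.13 for Ag+Costim to Ag. Without Naive 5 the first became 5.89 and the second 5.21, and without Ag 4 the third became 0.950. In bulk RNA, a smaller share of cells making a histone mRNA and less of it per cell cannot be told apart.

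**Figure D1:**
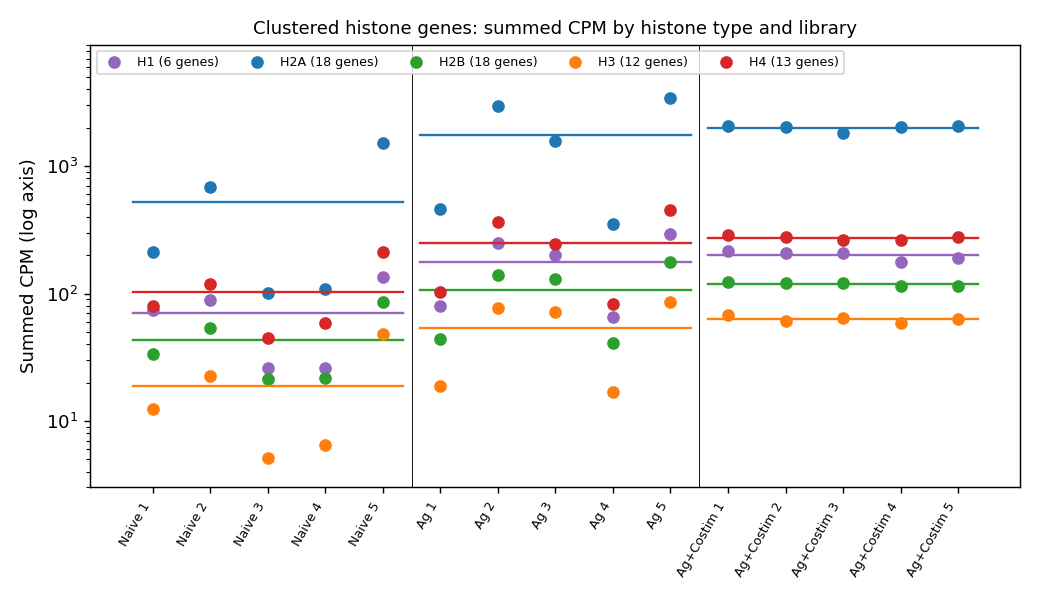
Summed CPM of the members of each histone type (vertical axis, log scale) in each of the 15 libraries (horizontal axis). Points are libraries and lines are group means. Ag 5 is highest for each of the 5 types, H2A lies above the other types in every library, and the Ag+Costim libraries lie close together.

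This spread was shared by nearly all members. In Ag, Ag 1 and Ag 4 were the 2 lowest libraries for 61 of the 62 members that passed the filter on low counts, and in Naive, Naive 3 and Naive 4 were the 2 lowest for 59 of 62. The median coefficient of variation over these members was 91.6% in Naive and 65.6% in Ag but 7.10% in Ag+Costim. Over all genes tested the corresponding medians were 25.5%, 38.5% and 12.0%. Members that share sequence are not independent of each other, and how many of all genes had these lowest libraries was not counted. The members that varied least in Ag were Hist2h2be, Hist4h4, Hist1h1c and Hist3h2a. Ag 1 and Ag 4 were also among the libraries with more B cell marker RNA, but so was Ag 3, where the members summed to 2229 CPM, and the part of these markers in the result was not tested.

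H2A genes gave most of the signal. They held 75.3% ± 1.31 of the summed member CPM in Ag+Costim, 71.0% ± 6.90 in Ag and 59.6% ± 12.7 in Naive (SD, n = 5), and all members together held between 0.0210% and 0.395% of a library's counts. Per kilobase of exon, which allows genes to be compared, the mean level over 15 libraries was highest for Hist1h2ap (620 CPM per kb) and Hist1h2ao (606), H2A genes of the Hist1 cluster. The median over the members that passed the filter was 141 CPM per kb for H2A, 16.1 for H1, 16.6 for H4, 6.69 for H2B and 6.88 for H3. The highest H4 member was Hist1h4d (86.6 CPM per kb), ahead of Hist1h4i (30.2). The highest H2B members were Hist1h2bj (16.4) and Hist1h2bk (12.1) and the highest H3 members Hist1h3i (14.3) and Hist1h3h (8.27). Within each of the 12 H2A and H2B pairs the H2A gene was the higher per kilobase except in 1, Hist1h2ba (3.70) with Hist1h2aa (1.68).

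How reads were split between near-identical genes limits these levels. A gene was scored by the share of the 50-base windows of its annotated transcripts that occur in no other gene. Windows were unique throughout in Hist1h1a, Hist1h1b, Hist1h1t and Hist2h2be, and at least 50% were unique in 33 of 67 members, 6 of 6 for H1 but 4 of 18 for H2A. Hist1h2ap shared 93.1% of its windows with Hist1h2ao, and the 2 genes had nearly the same values, 36.1 and 35.9 CPM in Naive 1 or 724 and 706 in Ag 5. The split among the 13 H2A genes of the Hist1 cluster was almost constant: Hist1h2ap took 21.8% ± 0.610 and Hist1h2ao 21.3% ± 0.383 of their counts (SD over 15 libraries). The values of these genes are therefore not independent of each other. Each H2A member also overlapped an annotated gene on the other strand, which few members of other types did. Hist1h2ap and Hist1h2ao each shared windows with 48 other genes, of which 17 were members. The kit does not mark strand, so reads of such overlapping genes cannot be separated. Their part in the H2A level was not tested. The 34 members with less unique sequence summed to 1856 CPM of the mean of 2658 in Ag+Costim.

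**Figure D2:**
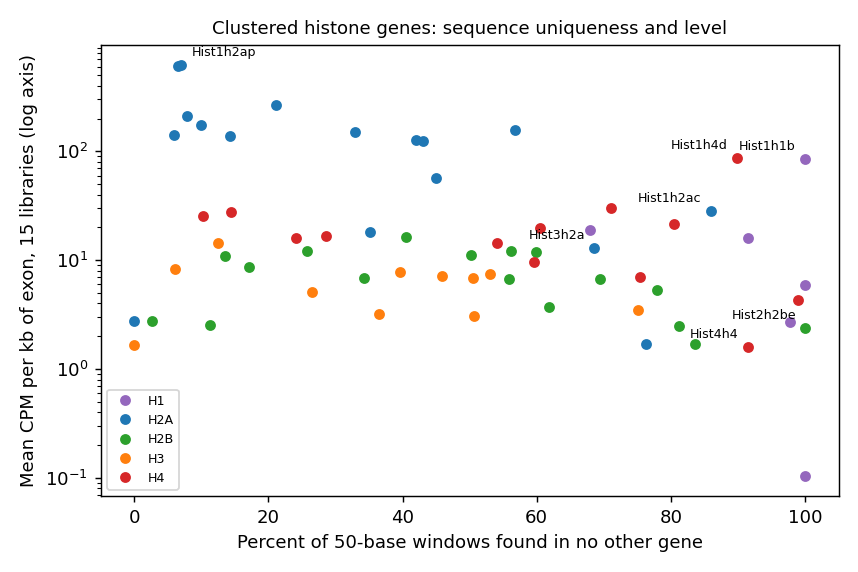
Mean CPM per kilobase of exon over 15 libraries (vertical axis, log scale) against the percent of 50-base windows found in no other gene (horizontal axis). Each point is a member with a value above 0, colored by type. Hist1h2ap (6.93%) and Hist1h2ao (6.50%) are the highest members, while Hist1h1b and Hist1h4d are high with most windows unique.

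The remaining 5 members did not pass the filter and were not tested. Hist1h1t, the testis H1, was at most 0.44 CPM. Hist2h2aa2, Hist2h3b and Hist2h2bb had 0 counts in all 15 libraries, which allows up to 3 counts per library, and Hist2h2aa1 had counts in 4 libraries. None of these 4 Hist2 genes had a unique window, and each overlaps annotated genes that did hold counts. Gm20632, over Hist2h2aa2, had 10.8 to 43.9 CPM, and Gm20628, over Hist2h3b and Hist2h2bb, had 3.95 to 28.5 CPM. Gm20634, which overlaps Hist2h2aa1 and Hist2h3c1, had counts in the same 4 libraries as Hist2h2aa1. A value of 0 for these genes is therefore not a measure of their mRNA. The tested member Hist2h3c1, which also had no unique window, held 3, 4, 4 and 5 counts in Naive 2, Ag 1, Ag 4 and Ag+Costim 2, the same 4 libraries. In the others it held 21 to 104 counts. Its fold changes carry this gap, and the division of its reads was not tested. Hist1h2ac had a similar gap, with 0 counts in Ag+Costim 1 and 94.9 to 114 CPM in the other Ag+Costim libraries.

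In Ag against Naive, 0 of the 62 members tested were called higher and 0 lower (edgeR quasi-likelihood test, Benjamini-Hochberg FDR under 0.05), against 3.05% of all 17366 genes called higher and 3.66% lower. The members lay above 0 nevertheless. Their log2 fold changes ran from -0.41 for Hist2h2be to 1.97 for Hist1h2ae, with a median of 1.51, against 0.08 over all genes tested, and 60 of 62 were positive against 55.8% of all genes. At an unadjusted p under 0.05 there were 53 of 62 members, against 28.7% of all genes. CPM separated the groups for no member in either direction, against 1.76% of all genes higher and 2.09% lower throughout. For the summed members, Ag 1 and Ag 4 lay within the Naive range. The lowest FDR was 0.052, for the H3 gene Hist2h3c2, at 1.73, 1.73, 0.86, 1.18 and 2.92 CPM in Naive 1 to 5 and 2.41, 6.27, 4.57, 1.72 and 5.82 in Ag 1 to 5. For Hist1h2ao the log2 fold change was 1.80 ± 0.81 (SE, FDR 0.163).

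This count changed with the libraries and with the tool. Without Naive 5, in which the members summed to 1988 CPM, 52 of 63 members tested were called higher in Ag and 1 lower, against 12.6% and 8.9% of all genes, and without Naive 5 and Ag 3 together 50 were higher, against 15.2%. Naive 5 was also the library with 606 CPM of myeloid markers, and the part of these markers in the result was not tested. Without Ag 4 the count was 15, against 5.01% of all genes, and without Ag 1 it was 4 of 62, against 5.11%, a share close to that of all genes. DESeq2 called 24 members higher and limma voom with sample quality weights 33, against 7.34% and 10.8% of all genes.

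In Ag+Costim against Ag, no member was called in either direction, against 0.0288% of all genes called higher and 0.00576% lower. None had an unadjusted p under 0.05, which 26.8% of all genes had, and DESeq2 also called none, while it called 3.82% of all genes higher and 10.8% lower. The log2 fold changes were small beside their errors, from -0.37 ± 0.50 for Hist1h1d to 0.62 ± 0.77 for Hist1h1b, with a median of 0.18 against -0.10 over all genes. They were positive in 51 members, against 42.1% of all genes, and at least 1 in none, against 0.633%. CPM separated the groups for no member in either direction, against 4.23% of all genes higher and 2.1% lower throughout. The median became -0.05 without Ag 1 and -0.07 without Ag 4. The lowest FDR, 0.350, was that of Hist3h2ba, an H2B gene outside the large clusters, at 1.72, 3.65, 3.92, 1.86 and 4.70 CPM in Ag 1 to 5 and 6.23, 4.47, 4.29, 3.37 and 4.31 in Ag+Costim 1 to 5. These values overlapped. With limma voom and sample quality weights, 55 of 62 members were called higher in Ag+Costim, against 31.3% of all genes, with a median log2 fold change of 1.52. Within lane 2 alone, where 3 Ag+Costim libraries stood against 5 Ag libraries, edgeR called no gene of the whole table in either direction.

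In Ag+Costim against Naive, 40 of the 62 members tested were called higher, against 21% of all genes, and 1 lower, against 23.6%. The median log2 fold change was 1.65, against -0.08 over all genes, and 60 members were positive, against 46.7% of all genes. CPM was higher in each Ag+Costim library than in each Naive library for 54 members, against 22.7% of all genes, and lower throughout for none, against 22.3%. By type, 2 of 5 H1, 4 of 16 H2A, 15 of 17 H2B, 8 of 11 H3 and 11 of 13 H4 members tested were higher.

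**Figure D3:**
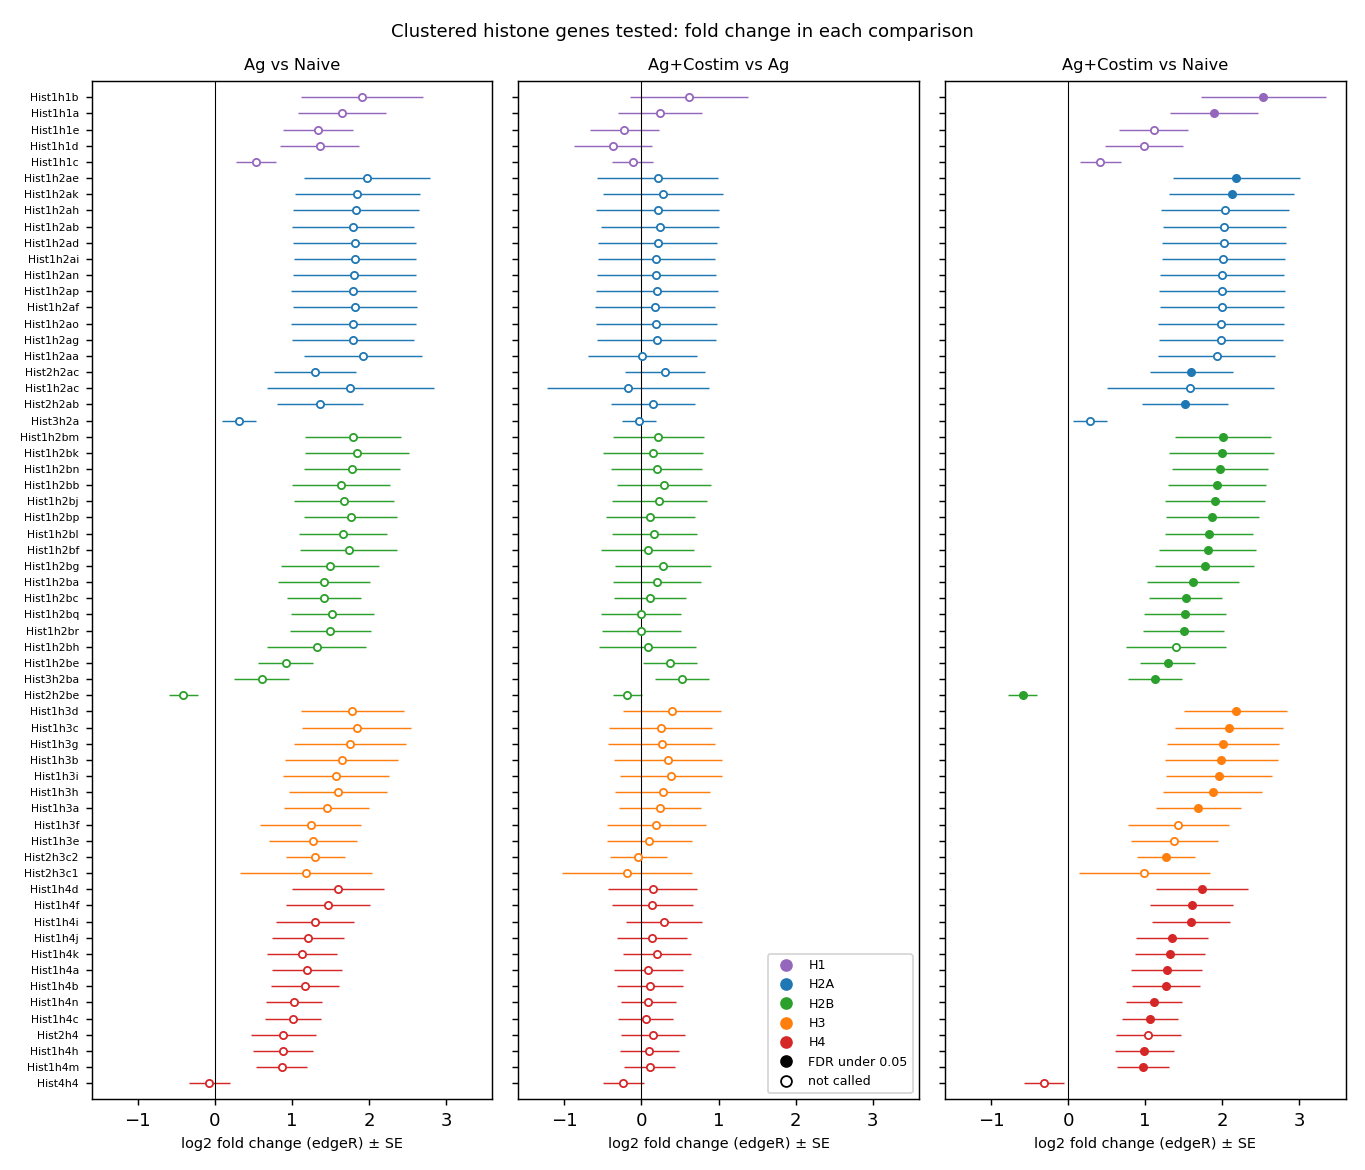
log2 fold change with its standard error from edgeR (horizontal axis) for the 62 members tested (vertical axis, grouped by type) in the 3 comparisons. Filled points passed an FDR of 0.05. Most members lie above 0 in both comparisons with Naive and close to 0 in Ag+Costim against Ag, and Hist2h2be lies below 0.

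Linker histones bind the DNA between nucleosomes. Hist1h1b, which encodes H1.5 and lies at chr13:21779883-21780625, had the highest log2 fold change of any member in Ag+Costim against Naive. Its CPM was 8.07, 25.2, 2.76, 2.01 and 52.1 in Naive 1 to 5, 16.9, 101, 73.8, 14.5 and 131 in Ag 1 to 5, and 108, 111, 105, 97.9 and 96.6 in Ag+Costim 1 to 5. All Ag+Costim libraries lay above all Naive libraries, and the Ag libraries spanned the range between and beyond. The log2 fold change against Naive was 2.53 ± 0.81 in Ag+Costim (FDR 0.025) and 1.91 ± 0.80 in Ag (FDR 0.135). Hist1h1a, which encodes H1.1 at a much lower level, was also higher in Ag+Costim, at 5.85 to 6.89 CPM against 0.42 to 3.86 in Naive (1.89 ± 0.57, FDR 0.021).

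The other linker histone genes were not called. Hist1h1c, which encodes H1.2, was at 28.6, 23.3, 12.0, 13.3 and 22.4 CPM in Naive 1 to 5 and at 32.2, 27.6, 26.8, 20.3 and 26.3 in Ag+Costim 1 to 5, so that the groups overlapped (0.42 ± 0.26, FDR 0.193). The values for Hist1h1d and Hist1h1e, which encode H1.3 and H1.4, were 0.99 ± 0.51 (FDR 0.118) and 1.11 ± 0.45 (FDR 0.057). Hist1h1e overlaps Hist1h2be on the same strand, with 23.8% of its windows shared. Shares of the summed H1 CPM in poly(A) RNA differed between the groups with these values. Hist1h1b gave 19.3% ± 13.6 of the summed H1 CPM in Naive libraries, 33.0% ± 10.8 in Ag libraries and 52.1% ± 2.13 in Ag+Costim libraries (SD, n = 5), while Hist1h1c gave 35.8% ± 14.3, 19.2% ± 6.69 and 13.3% ± 1.27. The lowest Hist1h1b share in Ag+Costim, 50.2%, lay above the highest in Ag, 44.8%, and in Naive, 39.0%. This share was looked at after the values were seen and was not tested. Exon length, which differs among these genes, does not enter it. Per kilobase, Hist1h1b was above Hist1h1c in the Naive mean too, at 24.2 against 12.8 CPM per kb.

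**Figure D4:**
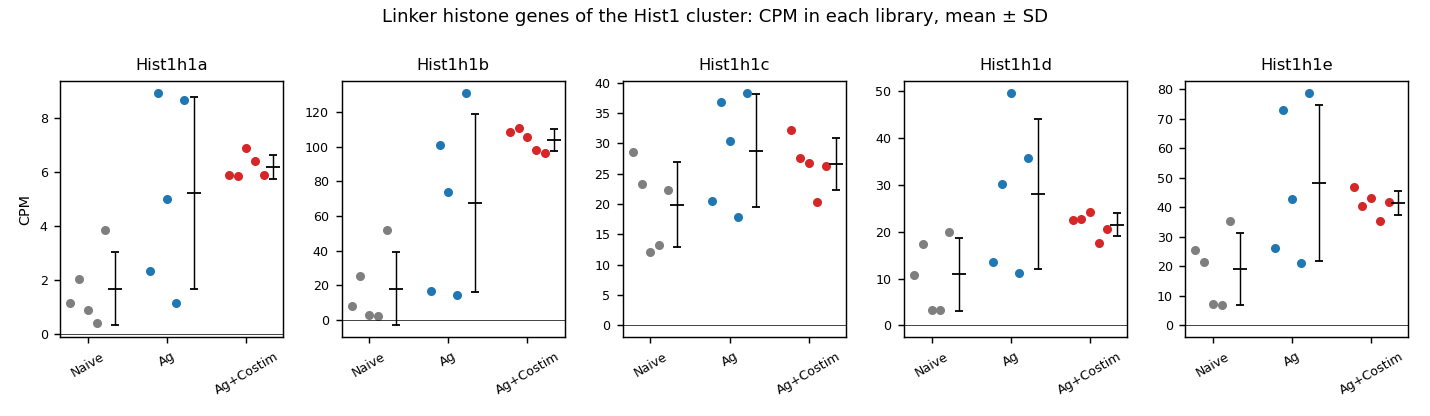
CPM of the 5 linker histone genes tested in each library (vertical axis, a scale for each gene), by group (horizontal axis). Points are libraries in replicate order, and bars give the mean and SD. Hist1h1a and Hist1h1b in Ag+Costim lie above all Naive libraries, and Hist1h1c overlaps between all groups.

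Among the core histones, which form the nucleosome, the highest log2 fold changes in Ag+Costim against Naive were those of the H2A genes Hist1h2ae (2.18 ± 0.83, FDR 0.044) and Hist1h2ak (2.12 ± 0.81, FDR 0.047) and the H3 genes Hist1h3d (2.17 ± 0.67, FDR 0.022) and Hist1h3c (2.09 ± 0.71, FDR 0.030). Hist1h2ae was at 14.3, 45.7, 5.22, 5.21 and 106 CPM in Naive 1 to 5 and at 176, 161, 150.3, 161 and 154 in Ag+Costim 1 to 5, without overlap. The H2A genes Hist2h2ac and Hist2h2ab were also called. For a further 10 H2A members the FDR was between 0.0504 and 0.0592, among them the most abundant pair, Hist1h2ap (FDR 0.059) and Hist1h2ao (1.99 ± 0.82, FDR 0.059). Their log2 fold changes, 1.93 to 2.04, lay in the range of the called members, so the lower count of H2A calls is no measure of a smaller change. Hist1h2ac (1.58 ± 1.08, FDR 0.229) carried the library with 0 counts.

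The 15 H2B members called had log2 fold changes from 1.13 for Hist3h2ba to 2.01 for Hist1h2bm, and the most abundant, Hist1h2bj, was at 10.3 to 11.7 CPM in Ag+Costim against 0.78 to 7.91 in Naive (1.91 ± 0.65, FDR 0.030). The H3 members called ran from 1.26 for Hist2h3c2 to 2.17, and the most abundant, Hist1h3i, gave 1.96 ± 0.69 (FDR 0.035). The 11 H4 members called ran from 0.97 for Hist1h4m to 1.74 for Hist1h4d, which encodes the same H4 protein as its neighbours and was at 23.8, 47.0, 14.2, 14.5 and 101 CPM in Naive 1 to 5 and 141, 134, 127, 129.9 and 139 in Ag+Costim 1 to 5. The smallest after Hist1h4m were Hist1h4h (0.99 ± 0.39, FDR 0.049), Hist1h4c (1.06 ± 0.36, FDR 0.031) and Hist1h4n (1.12 ± 0.36, FDR 0.026).

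Hist2h2be, an H2B gene at chr3:96221119-96223738, was the only member called lower. Its CPM was 9.41, 6.70, 9.77, 7.92 and 5.25 in Naive 1 to 5, 6.72, 5.37, 5.44, 5.87 and 6.01 in Ag, and 5.57, 6.42, 4.22, 5.45 and 4.31 in Ag+Costim. Naive 1, 3 and 4, where the summed members were lowest, were its highest libraries, while Naive 5 lay within the Ag+Costim range. The log2 fold change in Ag+Costim against Naive was -0.59 ± 0.19 (FDR 0.025). Its annotated exon of 2620 bases holds no stem-loop match and has only unique windows. Hist2h2ac, the H2A gene that faces it with 238 bases between the annotated starts, was called in the other direction (1.60 ± 0.54, FDR 0.029) and was at 12.1, 15.9, 5.15, 7.43 and 28.6 CPM in Naive 1 to 5 and 48.3, 45.0, 41.2, 35.5 and 39.5 in Ag+Costim 1 to 5. None of the other 11 facing pairs had log2 fold changes of opposite sign.

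Of the 3 members outside the Hist1 and Hist2 clusters, 1 was called. Hist4h4, an H4 gene, was at 6.47, 7.57, 3.06, 4.24 and 3.59 CPM in Naive, 3.79, 3.93, 5.44, 3.79 and 6.76 in Ag and 4.04, 3.98, 3.44, 4.41 and 4.17 in Ag+Costim, with a log2 fold change of -0.31 ± 0.26 in Ag+Costim against Naive (FDR 0.332). Hist3h2a, an H2A gene that shares 31.5% of its windows with Trim17 on the same strand, gave 0.28 ± 0.22 (FDR 0.297). Hist3h2ba was the member called higher (1.13 ± 0.35, FDR 0.023).

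The log2 fold change was set beside the length of the gene model. The median log2 fold change in Ag+Costim against Naive was 1.28 over the 18 members tested with at least 1 kb of exon, of which 7 were called higher and 1 lower, and 1.9 over the 44 with shorter models, of which 33 were called higher. It was 1.29 over the 22 members with at least 100 annotated bases past the stem-loop and 1.93 over the 21 with fewer. Over the 19 with no stem-loop match in the model it was 1.89, and 13 of these were called higher and 1 lower. Over all genes tested in this comparison, 21% were called higher and 23.6% lower. Hist1h4d and Hist1h3d, with 770 and 752 bases past the stem-loop, were nevertheless among the larger changes of their types. Members with at least 50% of unique windows had a median of 1.55, and the other members 1.93. These splits overlap in their members, and none was tested.

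The calls in Ag+Costim against Naive lay close to the threshold, from an FDR of 0.015 to 0.049. Without Ag+Costim 1, 2 or 5 they fell from 40 to 14 each time, against 13.9%, 13.6% and 12.5% of all genes called higher. They fell to 18 without Ag+Costim 3, against 14.8%, to 33 without Ag+Costim 4, against 17.5%, and to 25 without Naive 2, against 15.5%. Without Naive 1, 3 or 4 only 3, 4 and 1 of 63 members were called, against 8.04%, 11.1% and 7.84% of all genes, so that the members' share lay below that of all genes. Without Naive 5 they numbered 56, against 25.6%. With lane as a term 0 members were called, against 1.49% of all genes. Within lane 3, which held 2 Ag+Costim and 5 Naive libraries, 2 of 62 members were called, against 14.1% of all genes, again a lower share than over all genes. The median log2 fold changes of the members were 1.73 with lane as a term and 1.75 within lane 3.

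Genes that work with the clustered histones were read in the same fit. Of 12 genes for histone gene transcription and the cutting of their pre-mRNA, 0 were called in Ag against Naive, against 3.05% of all genes higher and 3.66% lower. In Ag+Costim against Ag 0 were called, against 0.0288% and 0.00576%. There 10 of 12 were positive, against 42.1% of all genes, with a median log2 fold change of 0.46. In Ag+Costim against Naive 7 were called higher and none lower. In that last comparison, to which the counts below also belong, 21% of all genes were called higher and 23.6% lower. Slbp, which encodes the stem-loop binding protein, was at 144 to 437 CPM in Naive and 574 to 751 in Ag+Costim (1.46 ± 0.42, FDR 0.016). Npat was at 36.4 to 50.8 CPM in Naive and 50.02 to 63.8 in Ag+Costim (0.45 ± 0.13, FDR 0.017), with a small overlap. In Ag+Costim against Ag its log2 fold change was 0.63 ± 0.13 (FDR 0.081), which was not called. Of 20 histone chaperone genes, 12 were higher and none lower, among them Asf1b (2.03 ± 0.74, FDR 0.039) and Chaf1b (1.70 ± 0.55, FDR 0.026), which hand new H3 and H4 to the replication fork. Of 8 listed genes of histone mRNA decay, 6 were found under these symbols, of which 3 were higher and none lower.

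Of 11 replacement histone genes, 9 were tested. In Ag+Costim against Naive 6 were called higher, against 21% of all genes, and none lower, against 23.6%. In Ag against Naive 1 was called higher, against 3.05% of all genes. H2afz, which encodes H2A.Z, was at 190.4 to 928 CPM in Naive and 1266 to 1449 in Ag+Costim (1.64 ± 0.52, FDR 0.024), and H2afx gave 1.83 ± 0.52 (FDR 0.016). H1f0, the linker histone H1.0, gave 1.63 ± 0.38 (FDR 0.0085) and H3f3b, an H3.3 gene, 0.74 ± 0.21 (FDR 0.017), while H3f3a, the other H3.3 gene, gave 0.05 ± 0.12 (FDR 0.764). The clustered members summed to 0.289 ± 0.206 of the replacement genes' CPM in Naive libraries, 0.566 ± 0.254 in Ag libraries and 0.623 ± 0.0277 in Ag+Costim libraries (SD, n = 5).

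DNA synthesis genes were read beside the members. Of 24 listed, 20 were called higher in Ag+Costim against Naive, against 21% of all genes, and none lower, against 23.6%. The median log2 fold change of the 24 genes was 1.76. Rrm2, a subunit of ribonucleotide reductase, gave 2.24 ± 0.87 (FDR 0.049), and Pcna, the sliding clamp, 1.57 ± 0.52 (FDR 0.028). In Ag against Naive none of the 24 was called, against 3.05% of all genes higher and 3.66% lower. In Ag+Costim against Ag none was called, against 0.0288% and 0.00576%. All 24 genes were nevertheless positive in both comparisons, against 55.8% and 42.1% of all genes. Their medians were 1.01 and 0.79, against 0.08 and -0.10 over all genes. Their summed CPM was 1450, 3196, 1300.1, 1097 and 7287 in Naive 1 to 5, 1578, 8696, 7102, 1629 and 9179 in Ag 1 to 5 and 9033 to 11554 in Ag+Costim. Naive 1, 3 and 4 and Ag 1 and Ag 4 were the 5 lowest libraries for both sums. At the top the order differed, with Ag 5 and Ag 2 highest for the members and Ag+Costim 4 and 5 highest for DNA synthesis. The members summed to 0.314 to 0.485 of the DNA synthesis CPM in Ag, 0.230 to 0.306 in Ag+Costim and 0.152 to 0.305 in Naive. The Ag values did not overlap those of the other groups, a difference that was seen in the values and not tested.

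**Figure D5:**
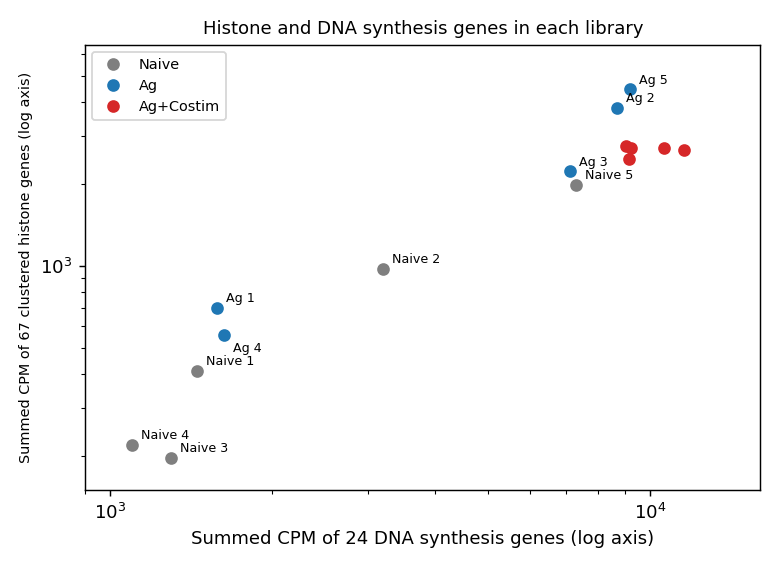
Summed CPM of the 67 members (vertical axis, log scale) against summed CPM of 24 DNA synthesis genes (horizontal axis, log scale). Each point is a library, colored by group. Ag 1 and Ag 4 lie with Naive 1, 3 and 4 at the low end, and Ag 2 and Ag 5 lie above the Ag+Costim libraries.

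A few members have more than 1 annotated transcript. Hist1h2br had a protein-coding transcript of 381 bases that took 69.3% ± 9.003 of its counts in Ag+Costim, 49.8% ± 33.1 in Ag and 30.3% ± 11.4 in Naive, and a transcript of 2197 bases annotated for nonsense-mediated decay that took 8.30% ± 4.96, 29.8% ± 24.4 and 39.6% ± 23.7 (SD, n = 5). Another protein-coding transcript of Hist1h2br, of 1256 bases, took 22.4% ± 13.7, 20.3% ± 18.0 and 30.1% ± 23.6 in the same order of groups. Hist1h2br held only 14 to 83 counts in each Naive library. In Hist1h2bq, the transcript of 2015 bases annotated for nonsense-mediated decay took 77.7% to 90.0% of counts in every library. The short transcripts of both genes share windows with other H2B genes, so these shares depend on how the authors' tool divided reads, and they were not tested.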

How the data were processed

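Gene and transcript tables deposited by the authors hold StringTie estimated counts as whole numbers, not normalized. Per the labels, RNA was made into libraries with a SMART-Seq v4 kit and Nextera XT, read as single 50-base reads and processed with HISAT2 2.1.0, SAMtools 1.9 and StringTie 2.1.0 on mm10. The annotation release and the division of shared reads were not given in the sources used here. The sequencing core's table, per the file headers, gives the count of sequenced reads and the lane. The deposited FPKM table was not used here.

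Of 81881 entries, 55536 matched GENCODE M21 (GRCm38), and the remainder held 0.0818% of counts and were left out. The kit does not mark strand, so antisense genes cannot be separated. The main test on these estimated counts was that of edgeR 4.0.16, run in R 4.3.3 (filterByExpr, TMM, quasi-likelihood, robust, 1 coefficient per group, all 15 libraries, two-sided, FDR under 0.05 over 17366 genes). The steps were checked on simulated counts. DESeq2 1.42.0 and limma 3.58.1 were alternatives. CPM are TMM-scaled.

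Named genes were the H1 genes of Hist1, all Hist3 and Hist4 members, the 2 members of each core type with the highest CPM per kb, and in each comparison the called members at both ends of the log2 fold change, 5 at each end; Hist1h2ac, Hist2h2ac and Hist2h3c2 and other members were named after their values were seen. Members and lists were chosen with earlier results of these data known. The planned share of counts on transcripts that end past the stem-loop gave no value, since no member has annotated transcripts that differ in this. Replicate numbers did not pair libraries: of 15 pairs, 5 had a correlation of deviations over 0.1. Chi-square per degree of freedom was at least 5.62 over the 30 pairs of libraries within groups, so no libraries were merged. The floor of 3 counts covers counting error only, since reads carry no molecular identifiers. One marker gene is not reported here.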

Additional observations from a re-analysis of the deposited data

Results flagged for a closer look

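Among the members named by the rule above and the sums by type, 3 of the 96 groups of 5 libraries examined held a library far from the others by Dixon's ratio, and chance flags about 1 in 20 groups, or 4.8 here. Hist1h2ac and Hist2h3c1 were not among the groups examined. Hist1h3i was at 7.25 CPM in Naive 5 and at 0.336 to 2.05 in the other Naive libraries. Hist1h2ak was at 79.0 CPM in Ag+Costim 1 and at 67.6 to 70.1 in the others. The summed CPM of H2A was 1816 in Ag+Costim 3 and 2033 to 2066 in the others.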

How the results depend on the processing

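In Ag against Naive, the 0 members called higher became 24 with DESeq2 (7.34% of all genes), 33 with limma voom and sample quality weights (10.8%), 9 with the replicate block and 50 without Ag 3 and Naive 5 together (15.2%). Leaving out 1 library gave 0 to 52 higher, 52 without Naive 5 (12.6%), 15 without Ag 4 (5.01%) and 4 without Ag 1 (5.11%), and 0 to 1 lower. In Ag+Costim against Ag, 55 members were higher with voom (31.3%). In Ag+Costim against Naive, the 40 higher became 0 with lane as a term (1.49%) and 2 within lane 3 (14.1%). Among members with at least 50% of unique windows, 21 of 32 tested were higher, a share close to the 40 of 62 over all members (21% of all genes). Leaving out 1 library gave 1 to 56, with 1 without Naive 4 (7.84%), 3 without Naive 1 (8.04%), 4 without Naive 3 (11.1%) and 56 without Naive 5 (25.6%). The 1 lower became 0 without the low-count filter, with lane as a term and within lane 3, and 0 to 1 when 1 library was left out. The log2 fold change of Hist1h1d in Ag+Costim against Ag, -0.37, became 0.63 with voom and 0.000308 without the filter. The cause of these changes was not tested, beyond the fewer samples or members that leaving out a library, a lane or members gives. The replicate block called 9, 0 and 55 members higher in the 3 comparisons, against 4.35%, 0% and 23.4% of all genes; only 6 of 15 libraries correlated best with a library of their own number, so the libraries share only a number and this is a hint from the data. The ratio of summed CPM ran from 2.41 to 5.27 for Ag to Naive, 0.950 to 1.46 for Ag+Costim to Ag and 2.89 to 5.89 for Ag+Costim to Naive. Low members near 1 CPM and members without unique windows limit what these depths show.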
